A study of Mus musculus with 4 samples.

Results

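Genes that move, modify or sense cholesterol, 10 in all, were followed in CD45-negative cells of mouse lymph nodes: Star, the hydroxylase genes Cyp7b1, Cyp27a1 and Ch25h, the exporter genes Abcg1 and Abca1, the carrier genes Apoe and Npc2, and the regulator genes Nr1h3 and Mylip. They were taken by gene name, and 12 of 41174 probes on the array carry one of the 10 names. All 10 genes met the filter on dim probes, which asked that a signal stand well above background in both experiments of one of the nodes, and were among 21392 genes tested. They were chosen by function with their mLN minus pLN signal differences on these same arrays already known, so their values in that comparison are given as a description and support nothing further.

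Per the labels, the mice were of the strain C57BL/6NCrl and wild type, with no treatment named. Their cells were taken either from the gut-draining mesenteric node (mLN) or from a peripheral node (pLN). Nodes were digested with collagenase and CD45-negative cells, those without the surface protein common to leukocytes, were separated on magnetic beads to a stated mean purity of 97.4% ± 2.0 (mLN) and 97.5% ± 2.2 (pLN). RNA of each node from 2 experiments was put on 1-colour Agilent arrays, which gave 4 arrays, 2 per node, all on 1 slide scanned once. The labels give neither the age of the mice, nor the peripheral site, nor the number of animals behind a sample, nor whether the experiments used separate animals, so any spread between arrays may be technical. In such bulk RNA, fewer cells of a type and less RNA per cell cannot be told apart.

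Cholesterol leaves cells mainly through the membrane exporters ABCA1 and ABCG1, which load it onto apolipoprotein A-I and lipoprotein particles. Cells sense a surplus as oxysterols, hydroxylated forms of cholesterol that activate the liver X receptors (LXR), and these receptors switch on Abca1, Abcg1, Apoe and Mylip. In lymphoid tissue, stromal cells also make an oxysterol, through Ch25h and Cyp7b1, that draws lymphocytes and dendritic cells bearing the receptor Gpr183.

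The sequence before the start of Abca1 is shown because it carries an element of the kind that LXR binds, and that of Cyp27a1 because this gene lay on the other side of the node comparison. Both are the 250 bases before the start in the RefSeq promoter table on GRCm38.p6, where 7 of the 10 members were found in 10 windows, and Star, Abcg1 and Cyp7b1 were not. Capitals mark a direct repeat of GGTNA with 5 bases between the copies, the core of the element that LXR binds as a pair of AGGTCA-type sites, read here on the opposite strand from base 67 to base 53 before the start.
Abca1, chr4:53159896-53160145, minus strand: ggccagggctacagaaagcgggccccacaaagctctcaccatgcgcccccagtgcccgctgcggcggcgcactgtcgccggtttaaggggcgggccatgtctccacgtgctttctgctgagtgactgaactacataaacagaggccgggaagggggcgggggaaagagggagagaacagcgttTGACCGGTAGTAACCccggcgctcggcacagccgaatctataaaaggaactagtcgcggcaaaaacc
Cyp27a1, chr1:74713285-74713534, plus strand: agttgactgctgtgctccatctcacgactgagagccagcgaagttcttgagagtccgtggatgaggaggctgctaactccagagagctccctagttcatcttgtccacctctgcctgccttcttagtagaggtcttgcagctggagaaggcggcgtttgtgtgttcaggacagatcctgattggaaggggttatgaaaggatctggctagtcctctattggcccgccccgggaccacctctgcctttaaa

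That motif, searched on both strands, is in 236 of 32851 windows of 300 bases in the table (0.718%), and among the members it is in the Abca1 window alone. The letters AAGGTCA, bound by steroidogenic factor 1 and its relatives (4.72% of all windows), and the sterol regulatory element TCACNCCAC (1.24%) are in none of the 10 windows of the members. The GC box GGGCGG, found in 35.7% of all windows, is in those of Abca1, Cyp27a1, Npc2 and Mylip. The motifs share no base in these windows, and a match describes letters, not binding.

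Among the 10 genes, Star and Abcg1 had the largest differences between mLN and pLN cells. Star was 8.30-fold higher and Abcg1 3.23-fold lower in mLN, the oxysterol genes Cyp7b1 and Cyp27a1 were 2.22-fold and 2.04-fold higher in mLN, Abca1 was 1.45-fold lower, and Apoe, Npc2, Nr1h3, Mylip and Ch25h had mean differences under 0.2 on the log2 scale. Signals are given as log2 relative to the 75th percentile of the same array, which is 0 on that scale, and a level is compared only within a probe.

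**Figure D1:**
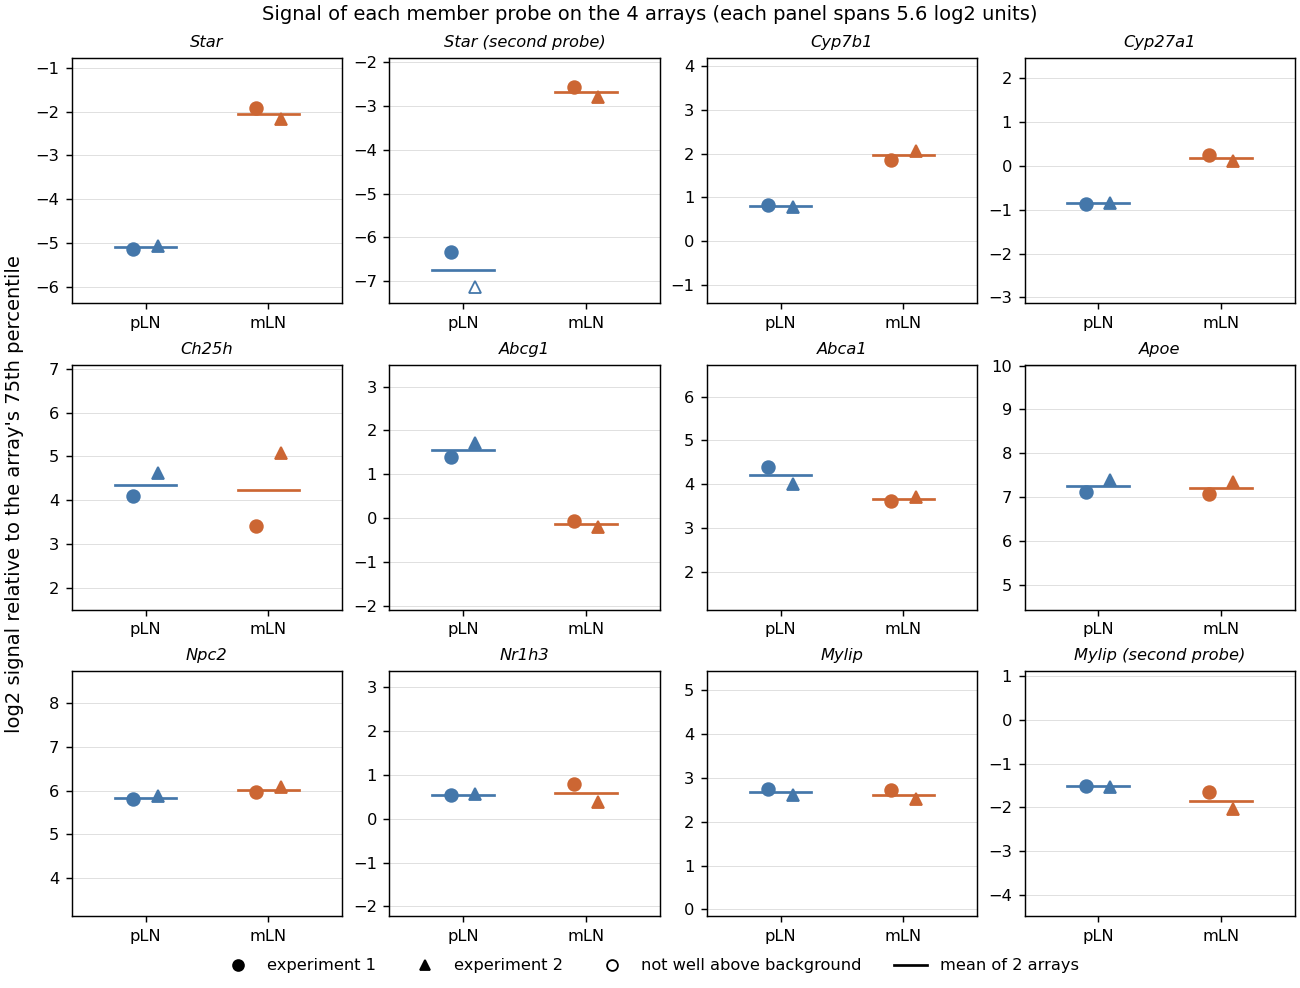
Signal of the 12 member probes on each array (y axis, log2 relative to the array's 75th percentile; circles are experiment 1, triangles experiment 2, lines the mean of 2 arrays, and an open symbol is not well above background). Both mLN symbols of Star, Cyp7b1 and Cyp27a1 lie above both pLN symbols, those of Abcg1 lie below, and those of Ch25h lie on both sides.

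A gene is said to have passed where its p from limma, Benjamini-Hochberg adjusted over all 21392 genes, was below 0.05. Between the nodes 1.05% of the genes passed, 0.771% higher and 0.276% lower in mLN, and 14.7% had an unadjusted p below 0.05. These are the shares to set beside the counts of each gene list below. Of the 10 members 2 passed, Star higher and Abcg1 lower in mLN, and since the members were chosen with this comparison known, nothing is read from that count. The Abcg1 call was lost with the experiment as a block (adjusted p = 0.0588, within 0.0143 to 0.69 over its alternatives) and with any 1 of the 4 arrays left out (−1.85 to −1.54), and that of Star with pLN replicate 1 or 2 left out, when no gene passed, although its difference stayed at 2.93 to 3.18 with any 1 array left out. The arrays of the nodes did not overlap for 6 members, against 45.6% of all genes; 4 of the 6 were higher in mLN (20.6% of all genes) and 2 lower (25.1%). A change of 2-fold or more in one direction in both experiments was seen for 3 members, Star, Abcg1 and Cyp7b1, against 4.45% of all genes.

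Star encodes the steroidogenic acute regulatory protein, which carries cholesterol to the inner mitochondrial membrane and is best known from adrenal and gonadal cells. Its brighter probe read −5.15 and −5.06 on the pLN arrays of experiments 1 and 2, and −1.92 and −2.17 on the mLN arrays. All 4 signals were well above background, and both mLN arrays lay above both pLN arrays. The log2 difference was 3.05 ± 0.16 (SE, n = 2 per node), 3.22 in experiment 1 and 2.89 in experiment 2. A second probe, whose match begins 725 bases further along the gene, read −6.34 and −7.13 in pLN and −2.56 and −2.78 in mLN. It was well above background on 1 of 2 pLN arrays, and with the other raised to the lowest signal called above background it was at least 14.5-fold higher in mLN. Both probes thus placed mLN above pLN.

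The first 30 bases of the Star probes are given to tell them apart, with their positions on mm8, the build of the files.
Star, brighter probe, chr8:27279808-27279867, plus strand: tagctagaagtcagtagagctataacattc
Star, second probe, chr8:27280533-27280592, plus strand: ttgaagtcttaagccttcactgatatttat

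No other gene of steroid hormone synthesis passed. Of 25 genes listed by function, 24 were on the array and 17 were tested, 4 of these had an unadjusted limma p below 0.05, and their median log2 difference was 0.00 against −0.03 over all genes. Cyp11a1, which makes pregnenolone from the cholesterol that the Star protein delivers, read −6.17 and −6.13 in pLN and −6.35 and −7.37 in mLN, and was well above background on 1 of 2 mLN arrays. Nr5a1, which encodes steroidogenic factor 1, had a difference of 0.00 ± 0.16. Akr1c18, a progesterone-inactivating reductase gene, had the largest value, 1.63 ± 0.55 (limma adjusted p = 0.298, or 0.0417 once the experiment was a block). It was 1.63 higher in mLN in experiment 1 and 1.64 in experiment 2, while its level fell by 1.12 in pLN and by 1.10 in mLN from experiment 1 to experiment 2. Mrap, an accessory protein gene of the corticotropin receptor, had 1.29 ± 0.80 (adjusted p = 0.572) and Nr5a2, a relative of Nr5a1, −0.89 ± 0.28 (adjusted p = 0.278). Cyp11a1 and Nr5a1 are named for their role, with their values known.

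Some markers of mesothelial, macrophage and acinar cells were, like Star, higher in mLN. Of 9 mesothelium genes tested, 6 passed higher in mLN and none lower, and the log2 of their summed signal was 4.82 on both pLN arrays and 5.70 to 6.07 on the mLN arrays. The sum follows the brightest genes: the median over the 9 genes was −5.34 and −6.54 in pLN against 2.21 and 1.78 in mLN, and the median difference was 8.02. On both pLN arrays 5 of the 9 were well above background, so the median rests partly on dim signals. Of 14 macrophage genes tested, Marco (3.28 ± 0.15, limma adjusted p = 0.0108) and Mrc1 (2.05 ± 0.20, limma adjusted p = 0.0365), scavenger and mannose receptor genes, passed higher and none passed lower (8 values were positive and 6 negative). The summed signal of the 14 genes was 3.86 to 4.23 in pLN and 5.83 to 6.04 in mLN. Marco alone read 2.40 and 2.50 in pLN and 5.82 and 5.65 in mLN. The median over the 14 genes was −2.02 and −2.45 in pLN and −1.85 and −2.05 in mLN. Cd163 was not well above background on any array. Of 8 pancreatic acinar genes, 1 passed, higher in mLN, and all 8 had an unadjusted limma p below 0.05. Their summed signal was 0.25 to 4.41 in pLN and 8.42 to 9.87 in mLN, with a median difference of 7.84. The median over the 8 genes was 1.16 and −4.69 in pLN and 7.05 and 5.46 in mLN, so the pLN arrays lay far apart. Of 8 adrenal and gonadal marker genes, 7 were on the array, 6 were tested and none passed, with a summed signal of 1.56 to 1.65 in pLN and 1.13 to 1.34 in mLN, and Lhcgr was not well above background on any array. No gene passed without pLN replicate 1 or without pLN replicate 2, so these calls rest on both. Among 7 smooth muscle and pericyte genes tested, none passed (4 at an unadjusted limma p below 0.05, against 14.7% of all genes). Their median difference was 0.35, with 5 values positive and 2 negative. Their summed signal was 6.74 and 7.01 in pLN and 7.43 and 7.44 in mLN. Adipocyte markers (6 tested) also had no gene that passed, with 1 value positive, 5 negative and a median of −0.26. The part of any of these cells in the Star difference was not tested. Stromal markers were well above background on every array. None of 13 fibroblastic genes passed (limma; 1 at an unadjusted p below 0.05), with a median of 0.07. None of 9 endothelial genes passed either (5 at an unadjusted limma p below 0.05), but 8 of the 9 values were negative, with a median of −0.56. For 5 genes both mLN arrays lay below both pLN arrays (25.1% of all genes), and for 1 they lay above (20.6%). The summed endothelial signal was 6.79 and 6.65 in pLN and 6.61 and 6.37 in mLN. Ptprc, which encodes CD45, had a difference of 0.06 ± 0.21.

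The 5 genes whose pattern over the 4 arrays lay nearest to that of Star, by Euclidean distance after each gene's own mean was removed, were Isx, Iyd, Il18r1, Mgarp and Marco, at distances of 0.14 to 0.24 on the log2 scale. On the pLN arrays Isx and Iyd were not well above background, so their distances rest on dim signals. In all, 30 genes lay within 0.5 and 113 within 1 of Star.

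None of the hydroxylase genes passed, and the arrays of the nodes overlapped for Ch25h but not for Cyp7b1 and Cyp27a1. Cyp7b1, which adds a hydroxyl group to oxysterols and completes the Gpr183 ligand, read 0.83 and 0.78 in pLN and 1.86 and 2.05 in mLN. Both mLN arrays lay above both pLN arrays, and the log2 difference was 1.15 ± 0.15, 1.03 in experiment 1 and 1.27 in experiment 2. Cyp27a1, a mitochondrial enzyme that hydroxylates the cholesterol side chain, read −0.86 and −0.84 in pLN and 0.25 and 0.11 in mLN, with a difference of 1.03 ± 0.14. Its arrays did not overlap either, and the experiments gave 1.11 and 0.94.

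Ch25h, the hydroxylase that makes the first step toward the Gpr183 ligand, read 4.09 and 4.62 in pLN and 3.41 and 5.07 in mLN. The arrays of the nodes overlapped, with the lowest and the highest value both in mLN. The difference was −0.12 ± 0.60, with −0.68 in experiment 1 and 0.44 in experiment 2. Its mLN level was 1.66 higher in experiment 2 than in experiment 1, and its pLN level 0.54 higher. On average the experiments lay further apart (1.10) than the nodes (−0.12), mainly through mLN. The pLN gap of 0.54 was smaller in size than the node difference of −0.68 in experiment 1. With 1 array left out, the node difference ran from −0.94 to 0.71. Hsd3b7, whose product breaks the ligand down, had −0.30 ± 0.13 (adjusted p = 0.426), and Gpr183 itself −0.06 ± 0.14 (adjusted p = 0.90); both are named for their role, with their values known.

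Of 18 further genes of oxysterol and bile acid metabolism, 13 were tested and none passed (2 at an unadjusted limma p below 0.05), with a median of −0.19. The largest differences among genes of the same sign in both experiments were those of Slc27a2, a fatty acid and bile acid CoA ligase gene that neither mLN array measured above background (lower in mLN by at least 2.91-fold, adjusted p = 0.134), Sult2b1, an oxysterol sulfotransferase gene (−1.08 ± 0.18, adjusted p = 0.108), and Acox2, an oxidase gene of bile acid side chains (−0.55 ± 0.32, adjusted p = 0.542). The bile acid genes Cyp8b1, Akr1d1, Baat, Slc27a5 and Slc10a2 did not pass the filter on dim probes.

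Both exporter genes read lower in mLN, and of the pair Abcg1 passed. Abcg1, which moves cholesterol to lipoprotein particles, read 1.40 and 1.71 in pLN and −0.07 and −0.21 in mLN. Both mLN arrays lay below both pLN arrays, with a log2 difference of −1.69 ± 0.18, −1.47 in experiment 1 and −1.92 in experiment 2. Abca1, which loads cholesterol onto lipid-poor apolipoprotein A-I, read 4.39 and 4.01 in pLN and 3.62 and 3.70 in mLN. Its arrays did not overlap, but the difference of −0.54 ± 0.19 was not far from the gap of 0.39 between its pLN arrays, and it was −0.77 in experiment 1 and −0.31 in experiment 2. With 1 array left out it ran from −0.73 (without pLN replicate 2) to −0.35 (without pLN replicate 1).

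Of 19 other genes of cholesterol efflux and lipoproteins, 18 were tested, 1 passed lower in mLN and none higher, with a median of 0.03. Of the 18 values 9 were positive and 9 negative. The gene that passed was Apod, which encodes a lipocalin that travels on lipoproteins. It read 3.67 and 3.83 in pLN and 0.59 and 0.02 in mLN, a difference of −3.44 ± 0.24 (limma adjusted p = 0.0175), a call lost without pLN replicate 1 or pLN replicate 2 (0 genes of the 6 lists passed). Lower values that did not pass included those of Apoc1, the neighbour of Apoe (−1.27 ± 0.30, limma adjusted p = 0.171), and Scarb1, the receptor for high-density lipoprotein (−0.95 ± 0.19, limma adjusted p = 0.135). Both are named after their values were seen. In the other direction, Abcg5, a sterol exporter gene of gut and liver, was 9.20-fold higher in mLN by the measured signals (limma adjusted p = 0.081). It was 14.7-fold higher in experiment 1 and 5.76-fold in experiment 2, and neither pLN array measured it above background. Apoa4, an intestinal apolipoprotein gene, had 1.74 ± 0.22 (limma adjusted p = 0.0617). Neither passed, though Abcg5 did without mLN replicate 1 (a measured log2 difference of 2.57) or mLN replicate 2 (3.84). Of the 9 endothelial values given above, 8 were also lower in mLN, though none passed, and their part in the exporter and Apod differences was not tested.

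The carrier genes differed by less than 0.2 between the nodes. Apoe, the apolipoprotein that receives cholesterol from the exporters, read 7.10 and 7.38 in pLN and 7.08 and 7.34 in mLN, a difference of −0.03 ± 0.19. The values overlapped, and both nodes were higher in experiment 2, by 0.28 in pLN and 0.26 in mLN. The probe has 10 spots per array, of which 9 or 10 were used, and their standard deviation was 0.03 to 0.05 on the log2 scale, which is spread within an array. The difference between experiments did not pass (0.27 ± 0.14, limma adjusted p = 0.648). Npc2, a lysosomal protein that hands cholesterol on to NPC1, read 5.81 and 5.88 in pLN and 5.97 and 6.07 in mLN. Its arrays did not overlap, with a difference of 0.18 ± 0.14.

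In the list of START domain and intracellular sterol transport genes, the family of Star and the lysosomal partners of Npc2, 35 of 36 genes were tested and none passed (5 at an unadjusted limma p below 0.05), with a median of 0.02. The largest values of one sign in both experiments were Gramd1b, a gene for sterol transfer at membrane contacts (−0.79 ± 0.14, adjusted p = 0.12), Nceh1, a cholesteryl ester hydrolase gene (0.71 ± 0.28, adjusted p = 0.367), and Osbpl10, an oxysterol-binding protein relative (0.66 ± 0.20, adjusted p = 0.252).

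The regulator genes, by their brighter probes, overlapped between the nodes. Nr1h3, which encodes the receptor LXR alpha, read 0.55 and 0.56 in pLN and 0.80 and 0.39 in mLN, so that the mLN arrays enclosed the pLN arrays. Its difference was 0.05 ± 0.19, with 0.25 in experiment 1 and −0.16 in experiment 2. Mylip, a ubiquitin ligase that marks lipoprotein receptors for breakdown, read 2.74 and 2.60 in pLN and 2.73 and 2.51 in mLN, a difference of −0.05 ± 0.16. Its second probe, 3171 bases away on chromosome 13, read −1.51 and −1.54 in pLN and −1.66 and −2.03 in mLN, a difference of −0.32 ± 0.19 without overlap.

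Among 18 partners, cofactors and targets of LXR, all tested, none passed (1 at an unadjusted limma p below 0.05), and the median was 0.04. Mlxipl, a carbohydrate-sensing transcription factor gene (−1.03 ± 0.45, adjusted p = 0.418), Scd1, a fatty acid desaturase gene (−0.86 ± 0.61, adjusted p = 0.628), and Nr1h4, the bile acid receptor gene (0.81 ± 0.15, adjusted p = 0.122), had the largest values of one sign in both experiments. Of 9 genes of lipoprotein receptors and their control, none passed (3 at an unadjusted limma p below 0.05), 8 values were positive and the median was 0.20. The endocytic receptor gene Lrp2 had 1.16 ± 0.38 (adjusted p = 0.284), Vldlr, whose product the Mylip protein marks for breakdown, had 0.58 ± 0.15 (adjusted p = 0.197), and Lrp1, a scavenging receptor gene, had 0.45 ± 0.16 (adjusted p = 0.32).

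In the 6 further lists together, 110 of 125 genes were tested and 1 passed (0.909%, against 1.05% of all genes). An unadjusted limma p below 0.05 was seen for 22 of the 110, against 14.7% of all genes. With the experiment as a block 2 genes of the lists passed, Apod and Akr1c18. A value that did not pass is not shown to be equal in the nodes, with 2 arrays each.

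**Figure D2:**
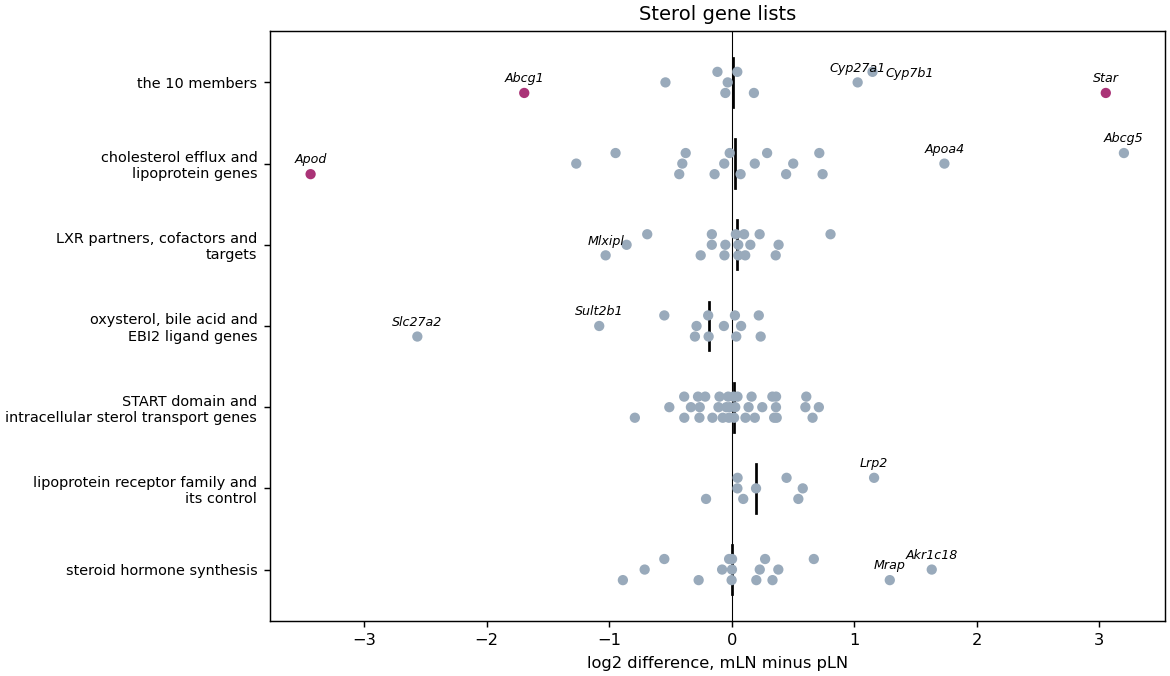
Log2 difference between the nodes (x axis, mLN minus pLN) of each tested gene in the list of the 10 members and 6 further lists; black lines are list medians and magenta points passed. Star, Abcg1 and Apod are the points that passed, and Abcg5 and Slc27a2 are drawn at their measured values although the dimmer node was not above background.

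**Figure D3:**
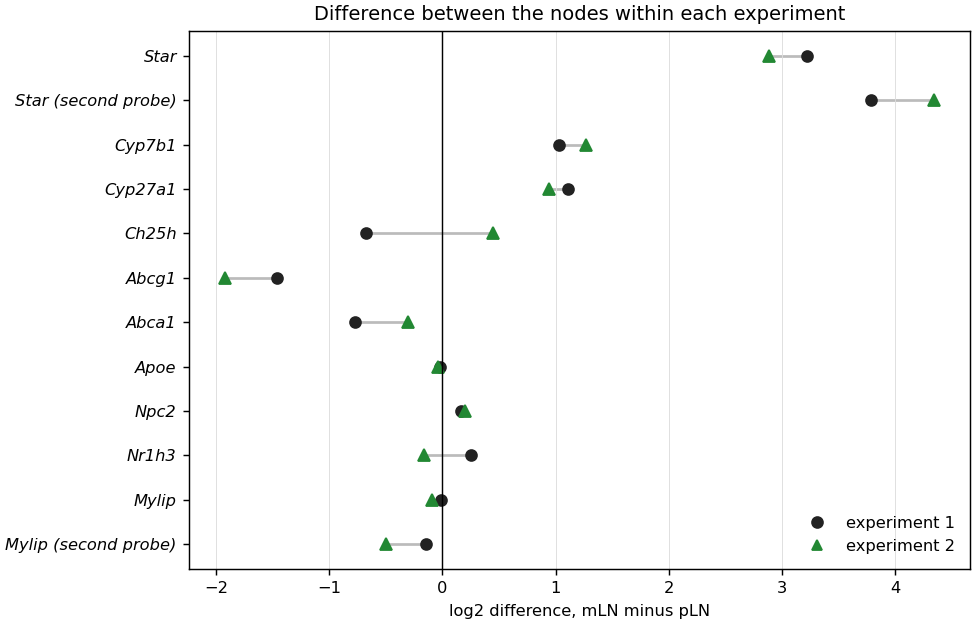
Log2 difference between the nodes (x axis, mLN minus pLN) within experiment 1 (circles) and experiment 2 (triangles) for each of the 12 member probes, 1 array per node and experiment. Both Star probes lie above 2.8, both Abcg1 symbols lie below −1.4, and those of Ch25h and Nr1h3 lie on opposite sides of 0.

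The experiments were compared as well, a contrast that played no part in the choice of the members. With the node as a term, 0 of 21392 genes passed between experiment 2 and experiment 1 (limma, 0% called), 1946 had an unadjusted p below 0.05 (9.1%), and 44 passed with an intensity trend in the variance (0.206%). None of the 10 members passed, with limma adjusted p from 0.535 to 0.934 over the 10. Ch25h alone had an unadjusted limma p below 0.05. Ch25h had the largest value, 1.10 ± 0.33 higher in experiment 2 (limma adjusted p = 0.535, higher in both nodes), and 401 genes (1.87%) differed by at least as much. The other 9 members differed by 0.27 or less, with Star at −0.08 ± 0.17 and Abcg1 at 0.09 ± 0.19. The median size of the experiment difference was 0.12 over the members and 0.16 over all genes.

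**Figure D4:**
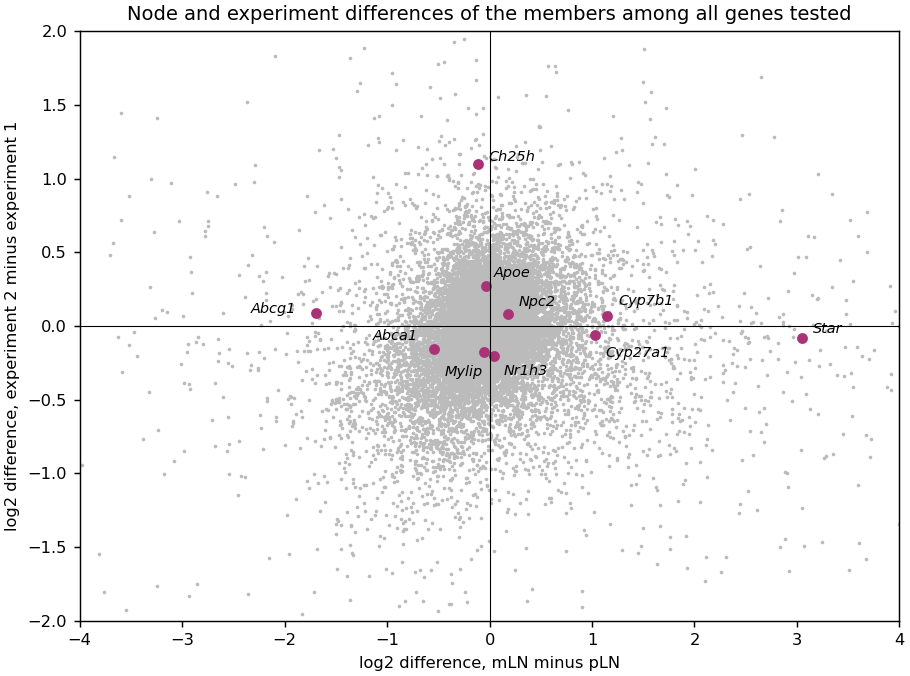
Node difference (x axis, log2, mLN minus pLN) against experiment difference (y axis, log2, experiment 2 minus experiment 1) for all genes tested (grey) and the 10 members (magenta); 156 genes lie outside the axes. Star, Abcg1, Cyp7b1 and Cyp27a1 lie apart along the node axis and near 0 on the experiment axis, and Ch25h the other way round.

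By the positions in the files (mm8), the remaining probes lie on chromosome 17 from 30842647 to 30842706 (Abcg1), chromosome 4 from 53052172 to 53052231 (Abca1), chromosome 3 from 18264437 to 18264496 (Cyp7b1), chromosome 1 from 74668836 to 74668895 (Cyp27a1), chromosome 19 from 34539925 to 34539984 (Ch25h), chromosome 7 from 18854905 to 18854964 (Apoe), chromosome 2 from 90985117 to 90985176 (Nr1h3) and chromosome 12 from 85646745 to 85646804 (Npc2). Those of Mylip lie on chromosome 13 from 45422582 to 45422641 and from 45419411 to 45419470. No annotation of exons on that build was used here.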

How the data were processed

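Per the file headers, the authors' scanner files hold intensity values that Agilent Feature Extraction 9.5.3.1 had corrected for background and for spatial and multiplicative trends. They also hold flags of 0 or 1 per spot, per the file headers. The deposited value table holds the same processed intensity on a linear scale, times 1 factor per array (0.862 to 0.890; 99.8% to 99.9% of values above the floor within 1%), with the 75th percentile at 1500, a floor of 15 and column medians of 169, 172, 167 and 161 for pLN 1, mLN 1, pLN 2 and mLN 2; this was read from the values, not stated.

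Outlier spots were left out, spots of a probe averaged, log2 taken and each array's 75th percentile subtracted (1686 to 1741; 74.0% to 81.1% of probes well above background). Of 41174 probes, 19 lost every spot on some array. The probes used were those well above background on both arrays of a node (31883), and the brightest of them stood for its gene (21392). Names came from RefSeq accessions (24364 probes), symbols (6297) or synonyms (2426) on GRCm38.p6, and 8068 kept the file's name.

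Nodes were compared with limma 3.58.1 in R 4.3.3, 2 arrays against 2, total degrees of freedom 4.35, Benjamini-Hochberg threshold 0.05. Moderated p-values lean on the spread shared across genes; an exact permutation of 2 against 2 cannot go below 0.333. The fit was tested on simulated data. Errors after ± are standard errors, except for purity. The labels number the experiments, so the number pairs an mLN with a pLN array; their deviations correlated with r = 0.246 across genes. Folds written "at least" set the brighter node's mean against, on each array of the dimmer node, the higher of the lowest level called above background (−7.01 to −6.51) and the probe's own signal. Most further genes were named by a rule: those that passed in each list and the 3 largest values of one sign in both experiments. Named outside that rule, with their values known, were Cyp11a1, Nr5a1, Hsd3b7, Gpr183, Apoc1, Scarb1 and some cell type markers. Members, lists and alternatives were chosen with earlier results of these data known. Values of 1 further gene of the lipoprotein receptor list are not reported here, and that list was counted without it.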

Additional observations from a re-analysis of the deposited data

Results flagged for a closer look

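For Ch25h the mLN minus pLN difference had opposite signs in the experiments, −0.68 (log2) in experiment 1 and 0.44 in experiment 2. For Nr1h3 it was 0.25 in experiment 1 and −0.16 in experiment 2. Each value rests on 1 array per node, so the difference between the experiments was not tested. Over all genes tested, 63.0% had the same sign in both experiments.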

How the results depend on the processing

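The count of 224 genes between the nodes was 0 with normexp background (566 at an unadjusted p below 0.05), 354 with median scaling, 44 without a filter on dim probes, 440 with an intensity trend, 333 with the experiment as a replicate block, and 0 to 185 with 1 array left out, the 0 arising without pLN replicate 1 or pLN replicate 2 (1877 and 2297 at an unadjusted p below 0.05). The 1 called gene of the further lists became 0 with normexp background and without a filter, 3 with median scaling and with an intensity trend (Apod, Abcg5 and Apoa4), 2 with the replicate block (Apod and Akr1c18), and 0 to 2 with 1 array left out. Between experiments the 0 became 44 with an intensity trend and stayed at 0 in the other settings, one of them (every probe by itself) chosen after seeing the data. Normexp background moved the median node difference of all genes from −0.03 to 0.38, and turned Nr1h3 to −0.024 and Npc2 to −0.17 between nodes, and between experiments Star to 0.52, Cyp7b1 to −0.16, Apoe to −0.053 and Npc2 to −0.27; median scaling put the experiment difference of Cyp27a1 at 0.00033. With 1 array left out the node differences ran from −0.94 to 0.71 for Ch25h, −0.17 to 0.11 for Apoe, −0.16 to 0.25 for Nr1h3 and −0.16 to 0.057 for Mylip. The calls of Star and Abcg1 were lost with normexp background (2.64 and −1.65), and that of Abcg1 without a filter on dim probes; Cyp7b1 and Cyp27a1 passed with an intensity trend. Star, Abcg1, Abca1, Cyp7b1 and Cyp27a1 kept their sign between nodes in every setting run. The causes were not tested. The block changed no call of a member other than Abcg1. The number of arrays, 2 per node, limits the precision.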
